A study of Mus musculus with 16 samples.

Results

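Homeostatic microglia genes mark the resident microglia of healthy central nervous tissue. The 9 genes described here (P2ry12, P2ry13, Tmem119, Cx3cr1, Sall1, Siglech, Gpr34, Olfml3 and Selplg) were chosen by name, and all 9 were found among the 24411 genes in the deposited tables. They were measured by RNA sequencing in spinal cord from 16 female C57BL/6J mice. In the SCI + Vehicle group (n = 7), mice of 12 wk received a 0.25 mm lateral compression of the cord and, from 2 wk after injury, daily vehicle (saline at 61% with PEG 400 at 35%, DMSO at 2% and Tween 80 at 2%) for 4 wk. The SCI + Atorvastatin group (n = 7) received the same injury and vehicle with atorvastatin, an HMG-CoA reductase inhibitor, at 10 mg/kg. The Uninjured Control group (n = 2) had neither injury nor treatment. Cords of the SCI mice were taken 6 wk after injury as a 5 mm section around the injury site, and controls as the matching section. No uninjured mouse received vehicle or atorvastatin, so injury and vehicle cannot be told apart in a comparison with the controls. The study's methods give the controls a younger age at isolation of the cord than the SCI mice, so age and injury cannot be told apart either.

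Microglia are the parenchymal macrophages of the brain and spinal cord, and they survey healthy tissue with motile processes. Their resting program depends on transforming growth factor beta, on Csf1r signaling and on transcription factors such as Spi1 (PU.1) and Sall1. After injury or demyelination, microglia typically lower this program and raise lysosomal, lipid-handling and phagocytic genes, and blood-derived macrophages that carry little of it enter the tissue.

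Sequencing depth was 14823292 to 25579826 counts per mouse, and both controls lay inside that range (20211276 and 22368736). The controls nevertheless had counts in 12732 and 12356 genes, fewer than the 16399 to 19338 of the SCI mice. A list of 12 liver genes summed to 4645 and 756 CPM in control replicates 1 and 2, and to at most 8.11 CPM in any SCI mouse. Taking the liver genes out of the library sizes, a step that TMM scaling largely absorbs, changed the call of no member in either comparison with the controls. The part of the other library differences in the values below was not tested. CPM of single genes are counts scaled to library size with TMM factors, which corrects for depth and composition but not for gene length. Summed CPM of a list are scaled to library size alone, without TMM factors. TPM corrects for gene length too. RNA was taken from whole tissue, so fewer cells of a type and less RNA per cell cannot be told apart.

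In the GENCODE annotation of GRCm38, the same assembly as the mm10 build of the deposited files, the members lie on 6 chromosomes. P2ry12 (chr3:59216272-59262871, minus strand) and P2ry13 (chr3:59207892-59210882, minus strand) are neighbors 5.4 kb apart, and both lie inside Med12l on the opposite strand. Exons of P2ry12 overlap an exon of Med12l, and the strand setting of the counting was not given in the sources used here. Med12l itself held 1867 to 3097 counts in the SCI mice and 2333 and 2374 in the controls. Tmem119 (chr5:113793729-113800516) and Selplg (chr5:113818536-113832644) are also neighbors, 18019 bases apart on the minus strand. Gpr34 (chrX:13632089-13640858, plus strand) lies within Cask without sharing an exon. Olfml3 (chr3:103722222-103738001) and Sall1 (chr8:89027235-89044162), both on the minus strand, and Siglech (chr7:55768178-55778925, plus strand) overlap no annotated gene. The annotated span of Cx3cr1 (chr9:119901616-120069879, minus strand) is long and contains several other genes in its introns.

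The promoters of 6 of the 9 members were present in the RefSeq table used (GRCm38.p6). The entries shown are those of the 4 members that passed the test in both comparisons with the controls. They show the 250 bases before the annotated start, 5′ to 3′ on the strand of the gene, and capitals mark GAGGAA or GGAAGT, letters that form the core of PU.1 binding sites, searched on both strands. They are chr3:59262986-59263235 for P2ry12, chr3:59210883-59211132 for P2ry13, chr9:120068297-120068546 for Cx3cr1 and chr3:103738002-103738251 for Olfml3, all on the minus strand.
P2ry12: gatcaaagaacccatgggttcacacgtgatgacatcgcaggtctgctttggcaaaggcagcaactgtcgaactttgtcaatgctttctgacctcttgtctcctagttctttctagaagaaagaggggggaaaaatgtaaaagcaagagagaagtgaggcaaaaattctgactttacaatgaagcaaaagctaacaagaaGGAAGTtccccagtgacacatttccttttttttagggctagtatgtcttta
P2ry13: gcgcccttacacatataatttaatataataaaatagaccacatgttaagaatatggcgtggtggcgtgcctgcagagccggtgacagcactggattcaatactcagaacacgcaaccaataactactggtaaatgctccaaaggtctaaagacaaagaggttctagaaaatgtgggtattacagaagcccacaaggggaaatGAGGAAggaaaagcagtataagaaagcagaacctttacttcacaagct
Cx3cr1: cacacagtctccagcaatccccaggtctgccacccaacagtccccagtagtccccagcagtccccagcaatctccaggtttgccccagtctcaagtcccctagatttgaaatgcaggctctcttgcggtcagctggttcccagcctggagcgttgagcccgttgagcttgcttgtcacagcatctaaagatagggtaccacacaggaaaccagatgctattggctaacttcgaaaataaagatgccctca
Olfml3: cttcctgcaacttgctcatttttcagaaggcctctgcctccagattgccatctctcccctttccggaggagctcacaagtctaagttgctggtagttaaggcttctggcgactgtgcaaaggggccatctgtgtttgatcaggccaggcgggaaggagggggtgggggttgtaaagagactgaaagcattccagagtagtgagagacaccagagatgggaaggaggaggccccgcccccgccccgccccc
The neighbors P2ry12 and P2ry13 each had 1 match, GGAAGT with 45 bases and GAGGAA with 42 bases between the match and the start. Cx3cr1 and Olfml3 had no match in this window. Of the other members in the table, Siglech had GGAAGT on the opposite strand with 150 bases to the start, and Sall1 had GGAAGT before 1 of its annotated starts with 174 bases to it. Over all 32851 promoters in the table, 23.3% held GAGGAA and 19.7% held GGAAGT (36.7% held either), against 4 of the 8 promoters of the 6 members in the table. These matches describe letters and are not evidence of binding.

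The 9 genes differed widely in level. By TPM in SCI + Vehicle, Olfml3 was the highest at 112 ± 18.3 (SD, n = 7), followed by Cx3cr1 at 96.3 ± 18.5. Selplg (44.8 ± 9.38) and Sall1 (39.9 ± 4.70) formed an intermediate level. Gpr34 (22.2 ± 4.21), Tmem119 (19.2 ± 2.5), P2ry12 (17.1 ± 5.82), P2ry13 (14.6 ± 3.18) and Siglech (12.7 ± 3.38) were the lowest, and the range over mice of each overlapped that of the next. In SCI + Atorvastatin the order was the same except that P2ry13 (17.7 ± 2.45 TPM) and P2ry12 (16.8 ± 2.66 TPM), whose ranges overlapped, exchanged places. Olfml3 (139 ± 19.7 TPM) and Cx3cr1 (97.5 ± 10.9 TPM) did not overlap each other in that group, whereas they overlapped in SCI + Vehicle. In the controls the order was different, with Sall1 (12.76 and 40.98 TPM) and Selplg (30.97 and 17.38 TPM) above Olfml3 (14.22 and 31.04 TPM) and Cx3cr1 (11.53 and 19.55 TPM), and the ranges of neighbors among these 4 overlapped.

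The purinergic receptor P2ry12 senses ADP and directs microglial processes toward damage. It had 38 and 0 counts in the 2 controls. In SCI + Vehicle, P2ry12 ranged from 8.51 through a median of 16.9 to 23.3 CPM, and in SCI + Atorvastatin from 13.3 through 17.8 to 23.1 CPM. Every SCI mouse was above both controls (1.91 and 0 CPM), and the lowest SCI value, 125 counts, came from SCI + Vehicle replicate 4, the library with the fewest counts. The mean of SCI + Vehicle was 9.01-fold the value of control replicate 1 and at least 126-fold the limit that 0 counts in control replicate 2 allowed (3 counts in that library). P2ry12 was also the most variable member in SCI + Vehicle, with a coefficient of variation of 29.4% against 18.6% in SCI + Atorvastatin. That difference in spread was not tested.

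P2ry13, another ADP receptor, was present in both controls at 90 and 141 counts (4.52 and 6.39 CPM). It ranged from 11.0 through 14.5 to 16.5 CPM in SCI + Vehicle and from 14.4 through 16.6 to 17.7 CPM in SCI + Atorvastatin. All 14 SCI mice lay above both controls, so the neighbor of P2ry12 was higher after injury also against controls that had counts. Gpr34, a related G protein-coupled receptor for lysophosphatidylserine, had 167 and 0 counts in the controls. It ranged from 13.5 to 20.5 CPM in SCI + Vehicle and from 12.4 to 22.1 CPM in SCI + Atorvastatin. These values were 2.06-fold and 2.20-fold control replicate 1 (8.38 CPM) on average, and at least 127-fold and 136-fold the limit in control replicate 2.

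Cx3cr1 is the receptor for fractalkine (Cx3cl1), which neurons carry. Its counts were 380 and 586 in the controls (19.1 and 26.5 CPM). It ranged from 105 through 131 to 159 CPM in SCI + Vehicle and from 108 through 140 to 158 CPM in SCI + Atorvastatin. No SCI mouse came near a control, and the SCI means were 5.12-fold to 7.15-fold the single controls. Siglech, a sialic acid-binding lectin that signals through the adaptor Tyrobp, had 130 and 0 counts in the controls. It ranged from 16.4 to 25.2 CPM in SCI + Vehicle and from 13.8 to 21.9 CPM in SCI + Atorvastatin, 2.93-fold and 2.71-fold control replicate 1 on average. Selplg (PSGL-1), the selectin ligand that leukocytes in general also carry, differed least among the surface receptors. The controls had 35.9 and 25.2 CPM, SCI + Vehicle 35.9 to 54.2 CPM and SCI + Atorvastatin 44.3 to 59.9 CPM. The lowest SCI + Vehicle mouse thus almost met the higher control, whereas SCI + Atorvastatin stood clear of both.

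Tmem119 encodes a membrane protein widely used to tell microglia from infiltrating macrophages. It had 126 and 0 counts in the controls, and ranged from 12.5 through 14.5 to 18.8 CPM in SCI + Vehicle and from 12.1 through 16.3 to 23.8 CPM in SCI + Atorvastatin. On average these groups were 2.36-fold and 2.70-fold control replicate 1, and all 14 SCI mice lay above it. Olfml3 encodes a secreted glycoprotein that binds Bmp4. It had 192 and 412 counts in the controls (9.64 and 18.7 CPM), 53.2 through 64.3 to 83.0 CPM in SCI + Vehicle and 67.9 through 78.6 to 103 CPM in SCI + Atorvastatin. The lowest SCI mouse was well above the higher control.

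Sall1, the zinc finger factor that maintains microglial identity, was the exception. Its 2 controls held 618 and 1985 counts (31.0 and 89.9 CPM), so they differed from each other more than the SCI groups differed from their mean. SCI + Vehicle ranged from 67.3 through 82.1 to 92.5 CPM and SCI + Atorvastatin from 72.4 through 83.5 to 96.4 CPM. In each SCI group, 1 of 7 mice lay above both controls. The SCI means were 2.60-fold and 2.68-fold control replicate 1 and 0.898-fold and 0.925-fold control replicate 2.

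**Figure D1:**
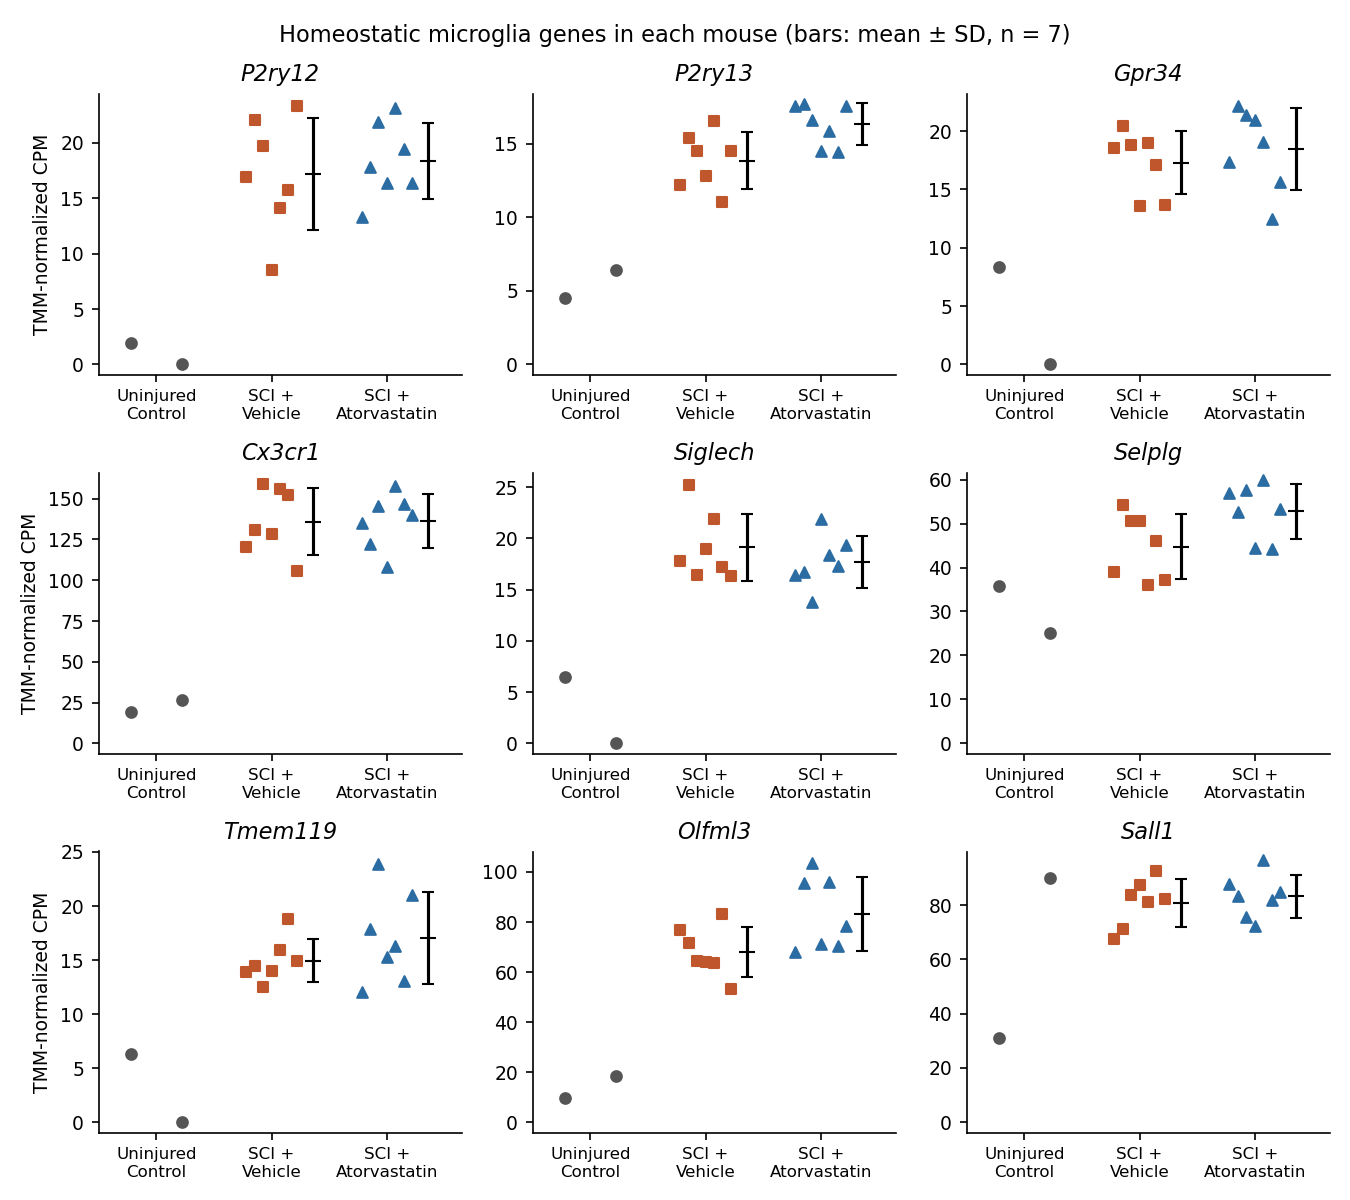
Each panel plots the TMM-normalized CPM of 1 homeostatic microglia gene in every mouse of the Uninjured Control (circles, n = 2), SCI + Vehicle (squares, n = 7) and SCI + Atorvastatin (triangles, n = 7) groups, with mean ± SD beside the groups of 7. For 8 of the 9 genes all SCI mice lie above both controls, while the controls of Sall1 (31.0 and 89.9 CPM) span most of the SCI mice.

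The counts and the TPM values of the controls did not always agree. Siglech and Gpr34 are listed at 0 TPM in both controls, although control replicate 1 has 130 and 167 counts for them. Siglech also had the widest span of CPM per TPM over the SCI mice, from 1.21 to 2.25. The levels in CPM are therefore used for the comparisons, and TPM for the order of the genes. A count of 0 at this depth was not unusual in the controls. Among 536 tested genes whose mean SCI count lay in the same range as the 4 members with a 0 (362 to 418), 8.96% were at 0 in control replicate 1 and 11.2% in control replicate 2. None was at 0 in any SCI mouse, but selection by the SCI counts makes a 0 there unlikely. The contrast between controls and SCI mice is therefore not a result.

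The first comparison, SCI + Vehicle vs. Uninjured Control, asks how these genes stood in chronically injured cord. In edgeR's quasi-likelihood test, 4 of the 9 members were upregulated (adjusted p below 0.05 and a log2 fold change above 0.32) and none was downregulated, and 19.9% of the 16091 genes tested were upregulated. The fitted change was above 0 for all 9 members, as it was for 57.4% of the genes tested. In 8 members every SCI + Vehicle mouse was above both controls, as in 24.8% of the genes tested. The median log2 fold change of the members was 2.24, and that of all genes 0.17.

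P2ry12 rose by a log2 fold change of 4.17 ± 1.16 (SE; edgeR adjusted p = 0.0208), Cx3cr1 by 2.56 ± 0.22 (adjusted p = 5.63e-05), Olfml3 by 2.25 ± 0.29 (adjusted p = 0.000373) and P2ry13 by 1.33 ± 0.36 (adjusted p = 0.0196). Of these 4, Cx3cr1 and Olfml3 had the smallest errors, and P2ry12 alone had a control at 0. P2ry12, with 0 and 1.84 TPM in the controls, entered the test through the SCI groups, as Siglech and Gpr34 did. With a mean TPM above 1 required in every group, these 3 genes were not tested, and 3 of the remaining 6 members were called with vehicle and 4 with atorvastatin. The size of the P2ry12 change depends on the 0 in control replicate 2. Without that mouse it was 3.15. Siglech (2.55), Tmem119 (2.24) and Gpr34 (2.04) had fitted changes as large but did not pass the test, with SE between 1.16 and 1.17 and edgeR adjusted p = 0.122, 0.177 and 0.215. In DESeq2, Siglech passed (2.52, adjusted p = 0.0295) and the other two did not (adjusted p = 0.0669 and 0.109), which gave 5 members. Selplg (0.54 ± 0.23, edgeR adjusted p = 0.0959) and Sall1 (0.40 ± 0.30, edgeR adjusted p = 0.357) had the smallest changes.

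SCI + Atorvastatin vs. Uninjured Control used the same 2 controls, so its values stand beside the first and do not repeat it independently. There, 5 of the 9 members were upregulated and none was downregulated, and 24.9% of all genes tested were upregulated. The fitted change was above 0 for all 9 members and for 58.3% of the genes tested. In 8 members every SCI + Atorvastatin mouse was above both controls, as in 29.8% of the genes tested. P2ry12 (4.28 ± 1.10, edgeR adjusted p = 0.0114), Cx3cr1 (2.59 ± 0.19, adjusted p = 1.55e-05), Olfml3 (2.56 ± 0.29, adjusted p = 0.000126) and P2ry13 (1.59 ± 0.28, adjusted p = 0.00155) were called here too. Selplg joined them (0.80 ± 0.19, edgeR adjusted p = 0.00686). Siglech (2.45), Tmem119 (2.44), Gpr34 (2.15) and Sall1 (0.47) had edgeR adjusted p-values from 0.123 to 0.248. DESeq2 called 7 members, with Siglech (adjusted p = 0.0363) and Tmem119 (adjusted p = 0.0405) added. The median of the members was 2.44, and that of all genes 0.21.

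**Figure D2:**
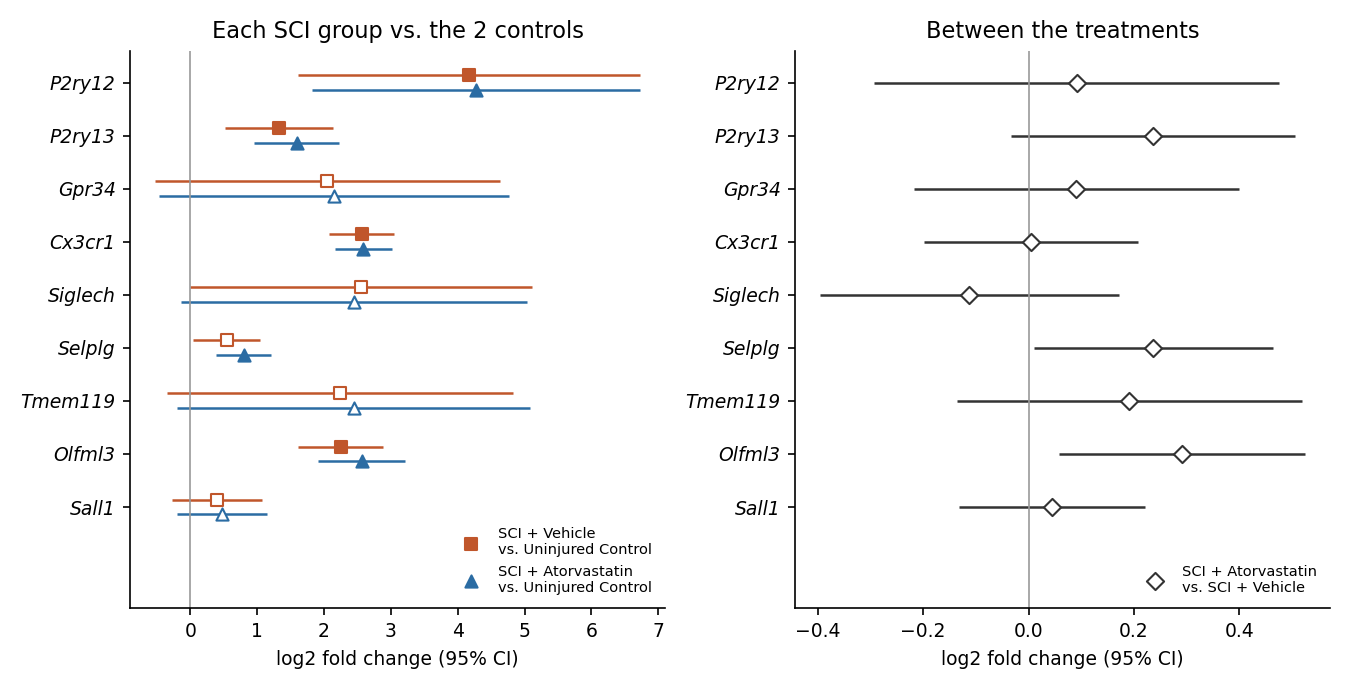
Log2 fold changes of the 9 genes with 95% confidence intervals from edgeR, for each SCI group vs. the 2 Uninjured Control mice (left) and for SCI + Atorvastatin vs. SCI + Vehicle (right); filled markers passed the test. Intervals are narrow for Cx3cr1 and Olfml3 and wide for the 4 genes with a 0 in a control, and between the treatments the intervals of Olfml3 and Selplg lie just above 0.

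With only 2 controls, these calls depend on how their spread is estimated. When limma's voom gave each group its own weight, none of the 9 members passed in either comparison (adjusted p from 0.183 to 0.643 with vehicle and from 0.135 to 0.494 with atorvastatin), and only 131 and 145 of all genes did, although Cx3cr1 (2.56 and 2.58) and Olfml3 (2.29 and 2.59) kept their size. When all 3 groups shared 1 edgeR fit, 7 and 8 members passed, and limma on log2(TPM + 1) called 8 in each. Sall1 was called in none of these 3 fits. The share of all genes called in the joint fit, the fit to log2(TPM + 1) and DESeq2 is not given here. A larger count of members in them is thus not a result about the members. Leaving out either control leaves a single control with no spread of its own, and calls rose among the members and among all genes. Without control replicate 2, the fitted changes with vehicle were 1.54 for Siglech, 1.23 for Tmem119, 1.03 for Gpr34 and 1.36 for Sall1. Without control replicate 1, the remaining control was at 0 for P2ry12 (11.6), Siglech (11.7), Tmem119 (11.4) and Gpr34 (11.6). Selplg was then at 0.82 and Sall1 at -0.17. With atorvastatin and without control replicate 2, the fitted changes were 1.44 for Siglech, 1.43 for Tmem119, 1.14 for Gpr34 and 1.43 for Sall1. Without control replicate 1, P2ry12 (11.7), Siglech (11.7), Tmem119 (11.6) and Gpr34 (11.7) again stood against a single 0, and Sall1 was at -0.10.

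Between the treatments, SCI + Atorvastatin vs. SCI + Vehicle, no member passed the study's limits (unadjusted p below 0.001 with a log2 difference of more than 0.32 in size), which 0.106% of all genes tested did. No gene of the 16091 had an edgeR adjusted p below 0.05, the smallest was 0.680, and without adjustment 1132 genes were below 0.05. At an unadjusted p below 0.05, 2 of the 9 members were higher with atorvastatin, against 4.02% of all genes tested. DESeq2 and limma's voom likewise called no member.

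Olfml3 had the largest difference, 0.29 on the log2 scale with a 95% confidence interval of 0.06 to 0.53 (edgeR adjusted p = 0.680). Its 7 SCI + Atorvastatin mice all lay above the SCI + Vehicle median. Selplg was 0.24 higher (0.01 to 0.46, edgeR adjusted p = 0.701), and 5 of 7 mice lay above that median. For P2ry13 the difference was 0.24 (-0.03 to 0.50) and for Tmem119 0.19 (-0.14 to 0.52). The groups overlapped for each of these genes.

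The narrowest intervals around 0 belonged to Sall1 (0.04, with -0.13 to 0.22) and Cx3cr1 (0.00, with -0.20 to 0.21). P2ry12 (0.09, with -0.29 to 0.48), Gpr34 (0.09, with -0.22 to 0.40) and Siglech (-0.11, with -0.40 to 0.17) had wider ones. Differences of any size inside these intervals remain compatible with the data from 7 mice a group. In all, 8 of the 9 fitted differences were above 0, with a median of 0.09, where 48.7% of all genes tested were above 0. The fitted difference was also above 0 for 15 of 16 general microglia or macrophage genes (median 0.17), 10 of 10 border-associated macrophage genes (median 0.56) and 6 of 6 fibroblast genes (median 0.94), and none of these was called. Their part in the differences of the members was not tested.

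The ligands, adaptors and regulators of these genes were followed in a list of 22, of which 20 were tested. In SCI + Vehicle vs. Uninjured Control 11 were upregulated and none downregulated, and in SCI + Atorvastatin vs. Uninjured Control 13 and 1, with medians of 2.11 and 2.39. Of the 20 genes, 4 had no counts in either control and entered the test through the SCI groups. Csf1r, the receptor on which microglial survival depends, rose by 2.59 with vehicle and 2.75 with atorvastatin (edgeR adjusted p = 2.01e-05 and 2.52e-06). Of its ligands, Il34 rose by 5.57 and 5.85 from 0.251 CPM in the controls, and Csf1 by 0.54 and 0.79. The transforming growth factor beta receptors Tgfbr1 (1.31 and 1.57) and Tgfbr2 (2.19 and 2.46) were upregulated in both, whereas their ligand Tgfb1 (2.04 and 2.32) and the signal transducers Smad2 (-0.18 and 0.00) and Smad3 (0.02 and 0.15) did not pass.

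Of the transcription factors, Irf8 (3.30 and 3.43) and Runx1 (1.47 and 1.93) were upregulated. Spi1 had no counts in either control and was at least 7.02 and 7.25 log2 units above the limit of 3 counts per control. Tyrobp, the adaptor of Siglech, rose by 3.60 and 3.85. Bmp4, the ligand bound by Olfml3, was also at 0 in both controls and was at least 6.14 and 6.49 log2 units above that limit.

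Fractalkine stood apart from its receptor. Cx3cl1 fell by 0.46 on the log2 scale in SCI + Atorvastatin (edgeR adjusted p = 0.0170) and had a value of -0.25 in SCI + Vehicle (edgeR adjusted p = 0.205), while Cx3cr1 rose in both. Between the treatments Cx3cl1 had a difference of -0.23 (edgeR adjusted p = 0.680). A list of 10 neuron genes fell alongside, with 8 of 10 downregulated in each comparison and medians of -0.68 and -0.80. The part of that loss in the value of Cx3cl1 was not tested. The ectonucleotidases that break down ADP and AMP, Entpd1 (1.36 and 1.59) and Nt5e (1.31 and 1.85), passed only for Entpd1 in SCI + Atorvastatin (edgeR adjusted p = 0.0227).

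Another 18 genes enriched in microglia moved broadly with the members. With vehicle 13 were upregulated and 1 downregulated, with atorvastatin 13 and 2, and the medians were 1.97 and 2.17. Fcrls, an Fc receptor-like scavenger, rose by 2.83 and 3.08. The nucleotide receptor P2ry6 was at 0 in both controls, at least 6.13 and 6.43 log2 units below the SCI groups, as were Lag3, Hpgds, Crybb1 and Ltc4s with bounds of their own. These 5 genes entered the test through the SCI groups. Slc2a5, a fructose transporter, was downregulated with atorvastatin (-2.15, edgeR adjusted p = 0.0286) and had a value of -2.18 with vehicle (edgeR adjusted p = 0.0585), from 10.1 CPM in the controls to 2.25 and 2.27 CPM in SCI + Atorvastatin and SCI + Vehicle. Adgrg1, an adhesion receptor that neural cells also carry, was downregulated in both (-0.74 with vehicle and -0.84 with atorvastatin).

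Markers of other myeloid states and cells were mostly higher too, with overlap between groups for the summed monocyte or neutrophil genes. Of 16 disease-associated microglia genes 15 were upregulated in each comparison (medians 2.46 and 2.81), among them Clec7a, Lgals3, Itgax and Cst7, which had no counts in either control. Apoe, the main lipid carrier of nervous tissue, rose by 2.18 and 2.34. Of 16 genes common to microglia and macrophages 13 and 15 were upregulated (medians 3.44 and 3.63), and of 10 border-associated macrophage genes 5 and 6. Of all genes tested, 19.9% and 24.9% were upregulated. In these lists, 5 disease-associated, 1 general and 5 border-associated genes had no counts in either control. Those genes entered the test through the SCI groups, so their direction was fixed in advance. Of 9 tested monocyte or neutrophil genes 4 and 6 were upregulated, and 6 of the 9 had no counts in either control and entered the test through the SCI groups. Their summed level was 23.8 and 54.5 CPM in the controls, 29.2 to 171 CPM in SCI + Vehicle and 32.1 to 130.0 CPM in SCI + Atorvastatin. Platelets also carry P2ry12, and 7 platelet genes summed to 1.65 and 18.6 CPM in the controls and to 6.75 to 17.7 CPM in the SCI mice, and none of the 6 tested passed. T or B lymphocyte genes were at 0 in both controls and summed to at most 19.6 CPM.

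**Figure D3:**
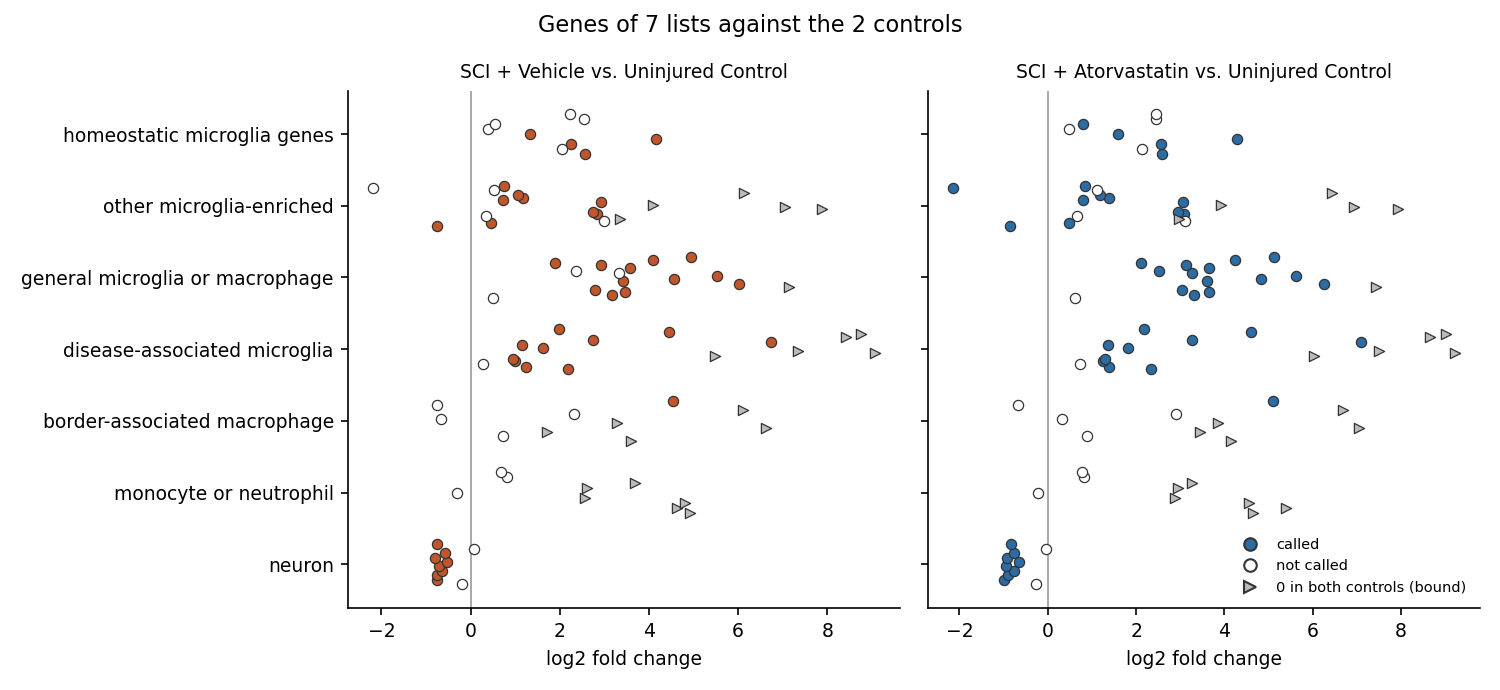
Log2 fold change of each tested gene in 7 lists, for SCI + Vehicle (left) and SCI + Atorvastatin (right) vs. the same 2 Uninjured Control mice; filled circles passed the test, open circles did not, and triangles mark genes at 0 in both controls at their lower bound. The homeostatic genes lie from 0.40 to 4.17 and from 0.47 to 4.28, and the medians of the general microglia or macrophage genes are 3.44 and 3.63.

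Relative to genes common to microglia and macrophages, the members stood lower in the SCI mice than in the controls, but the direction depended on the genes taken as the reference. The 9 members summed to 122 and 165 CPM in the controls, 348.1 to 454 CPM in SCI + Vehicle and 389 to 506 CPM in SCI + Atorvastatin. The 16 general microglia or macrophage genes summed to 173 and 296 CPM, 1848 to 2578 CPM and 2034 to 3308 CPM. For every 1000 counts of those 16 genes the members had 703 and 555 counts in the controls, 156 to 209 in SCI + Vehicle and 145 to 208 in SCI + Atorvastatin. The groups did not overlap, and this proportion needs no scaling between libraries. No test was made of this proportion.

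The same was seen in each of the 5 members with counts in both controls. Per 1000 general counts, Cx3cr1 stood at 88.4 and 109 in the controls and at 44.1 to 77.0 in the 14 SCI mice, and Olfml3 at 55.0 and 62.2 against 27.8 to 37.8. P2ry13 stood at 21.3 and 25.8 against 4.40 to 8.62. Sall1 (177 and 299 against 22.9 to 44.3) and Selplg (83.9 and 205 against 15.9 to 27.9) were farthest apart. Together they held most of the members' counts in each control, so they weigh heavily in the summed proportion. For Tmem119, Siglech and Gpr34 the SCI mice lay between the controls, 1 of which was at 0, and for P2ry12 they ranged from 4.31 to 12.2 against 10.9 and 0 in the controls.

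Against the 18 other microglia-enriched genes the direction of the sum was the opposite. For every 1000 counts of those genes the members had 245 and 332 counts in the controls, 368 to 429 in SCI + Vehicle and 373 to 453 in SCI + Atorvastatin, again without overlap. Cx3cr1 (37.9 and 52.8 in the controls against 105 to 155 in the SCI mice) and Olfml3 (19.1 and 37.1 against 59.0 to 87.4) stood higher on this scale, while Sall1 (61.6 and 179 against 64.0 to 91.2) lay between the controls. Selplg went the other way (50.1 and 71.3 against 33.3 to 53.9), with SCI mice overlapping only the lower control. By mean log2 ratio to these genes, some members stood lower than in the controls and others higher. Those 18 genes summed to nearly the same CPM in both controls, with Adgrg1 the highest of them at 151 CPM on average. Adgrg1, which neural cells also carry, was downregulated in both comparisons while the sum rose. It thus made up a larger part of this reference in the controls than in the SCI mice. Whether the direction and the lack of overlap hold without Adgrg1 was not tested. This reference was chosen after seeing the data, and no test was made of it.

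With Csf1r and Aif1 alone as the reference, members were split. On the log2 scale Cx3cr1 was at -0.20 on average in the controls and at 0.81 in SCI + Vehicle and 0.69 in SCI + Atorvastatin, and Olfml3 at -0.94 against -0.19 and -0.03, so both stood higher after injury. Selplg (0.22 against -0.79 and -0.68) was lower than in either control in all SCI mice. Sall1 (1.03 against 0.06 and -0.02) was lower on average and overlapped the controls in SCI + Vehicle. P2ry13 (-2.25 against -2.48 and -2.36) overlapped the controls in both groups. Aif1 did not pass the test in either comparison (0.50 and 0.62, edgeR adjusted p = 0.327 and 0.136), unlike most of the general list.

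Across the 14 SCI mice, with group means removed, the members varied together only weakly. The mean Pearson r over their 36 pairs was 0.11 (25 pairs above 0, from -0.35 to 0.63), and 0.055 with log2(TPM + 1). The highest pairs were Tmem119 with Olfml3 (0.63), Gpr34 with Olfml3 (0.57) and Cx3cr1 with Sall1 (0.49). The neighbors P2ry12 and P2ry13 had an r of 0.14. These values describe 14 mice, and the genes of a mouse share its library, depth and tissue section, so no test was made of them.

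The members differed in how they followed the mean log2 CPM of the 16 general genes over the same 14 mice. Olfml3 followed it most closely (r = 0.91), then Tmem119 (0.63), Gpr34 (0.55), Selplg (0.47), Cx3cr1 (0.43) and P2ry12 (0.42). P2ry13 (-0.12), Sall1 (-0.16) and Siglech (-0.18) did not follow it. Other genes with counts in every SCI mouse numbered 14523. Of these, Necap2, Hist1h4h, Erp29, Arf6 and Smpdl3a had the highest mean r with the 9 members, from 0.39 to 0.42. Because the members varied together only weakly, no gene could have a high mean r with all 9. The values therefore do not show how closely a gene tracked the set.

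**Figure D4:**
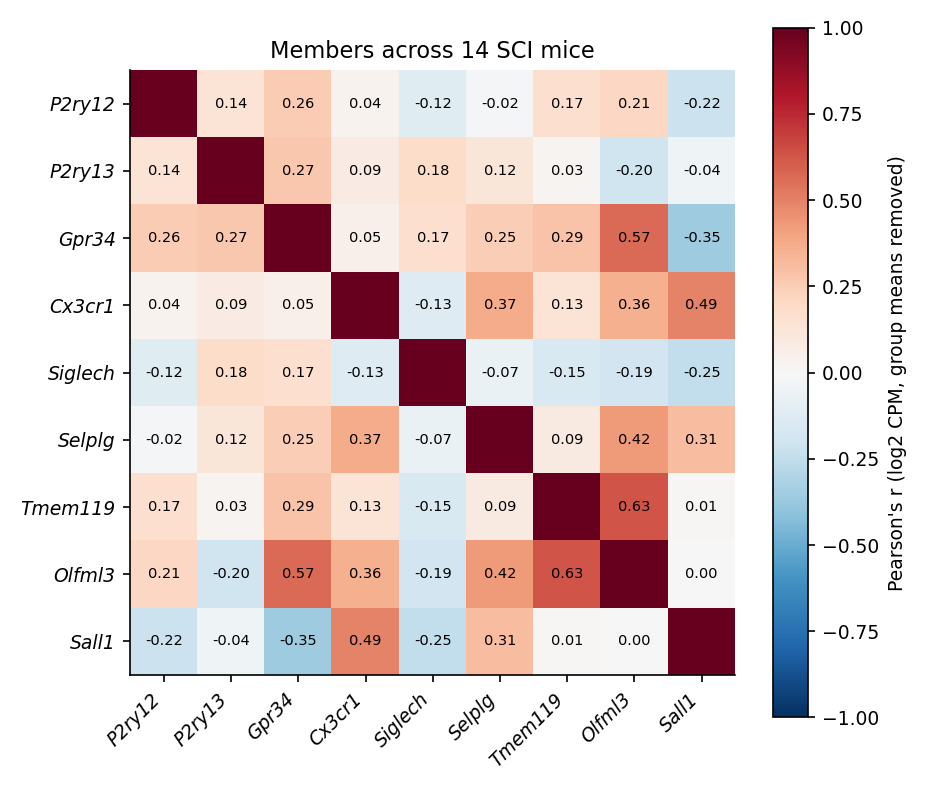
Pearson's r between each pair of the 9 genes over 14 SCI mice, from log2 TMM-normalized CPM with group means removed; the color scale runs from -1 to 1. Most pairs are near 0, and Olfml3 with Tmem119 (0.63) and with Gpr34 (0.57) stand out.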

How the data were processed

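RNA from the injury site of 14 mice and the matching site of 2 uninjured mice was sequenced with a stranded total RNA kit. Per the submitters' processing notes, reads were checked with FastQC 0.12.1, trimmed with Trimmomatic 0.38, aligned to mm10 with STAR 2.5.4b and quantified with RSEM 1.3.1. The authors deposited whole-number counts and TPM per gene. The step that made the counts whole was not given in the sources used here. Members and gene lists were chosen with earlier results of these data known, so their counts describe and do not test a prior choice. All list genes were counted, and those with the largest changes or that passed the limits were named as examples. The genes most like the members were ranked by mean r of log2 CPM (prior count 2) over the SCI mice. Plotting used matplotlib (version 3.10.9; Python version 3.11.15).

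Of 24411 genes, the 16091 whose mean TPM passed 1 in any group were fitted to the counts, each pair of groups alone, by edgeR 4.0.16 under R 4.3.3. Its quasi-likelihood test was used with TMM factors, and p-values were adjusted by Benjamini-Hochberg over those genes. A gene was called where its log2 fold change exceeded 0.32 in size with an adjusted p below 0.05, or between the treatments at p below 0.001, as in the study. Standard errors were derived from the F statistic. Alternatives used DESeq2 1.42.0, limma 3.58.1 (log2(TPM + 1), voom), other scaling, other filters, a replicate block and leaving out each mouse. The fits were also run on simulated counts in which both groups had the same spread per gene. The outcome is not given here, so it is no support for the calls. The limit of 3 counts for a count of 0 covers counting error only. No pair of libraries of a group agreed within sampling noise. The labels named no batch.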

Additional observations from a re-analysis of the deposited data

How the results depend on the processing

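The calls against the 2 controls were the least stable results. From 4 members called with vehicle and 5 with atorvastatin, all 3 groups in 1 fit gave 7 and 8, limma on log2(TPM + 1) gave 8 and 8 (median of all genes 0.49 and 0.52 there, against 0.17 and 0.21), and voom with group weights and the replicate block each gave 0 and 0. Leaving out 1 mouse gave 4 to 8 with vehicle and 5 to 9 with atorvastatin: 8 and 8 without Uninjured Control replicate 1, 8 and 9 without replicate 2, and the main counts without any single SCI mouse. The lone control is then assumed to vary like the SCI mice, and calls over all genes rose as well. For the joint fit and limma on log2(TPM + 1), the share of all genes called is not given.

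Over all genes, 4789 calls with vehicle became 2394 with a mean TPM above 1 required in every group, 2867 with at least 10 counts in every mouse, 131 with voom weights, 27 with the block and 3839 to 7806 with 1 mouse left out (7673 without control replicate 1, 7806 without replicate 2). With atorvastatin 6260 became 3693, 4033, 145, 0 and 5582 to 9826 (9707 and 9826). Between the treatments 17 became 37 with DESeq2, 1 in the joint fit, 11 with the TPM filter, 8 with voom weights, 8 with the block and 5 to 32 with 1 mouse left out, and no member was called in any setting.

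Sall1 turned to -0.17 with vehicle and -0.10 with atorvastatin without control replicate 1, and ranged up to 1.36 and 1.43 with 1 mouse left out (both without control replicate 2, where it was called). Between the treatments Cx3cr1, at 0.00, turned to -0.00092 with the TPM filter and ranged from -0.049 to 0.054 with 1 mouse left out, and P2ry12 ranged from -0.023 (without SCI + Vehicle replicate 4) to 0.18. Against general genes, 7 members with vehicle and 8 with atorvastatin had a lower mean log2 ratio than the controls, 8 and 8 as shares of the summed counts (chosen after seeing the data), 3 and 3 against Csf1r and Aif1, and against the 18 other microglia-enriched genes 5 and 5 by log2 ratio and 2 and 2 as shares of summed counts (added later). The mean pairwise r of 0.11 was 0.055 with log2(TPM + 1) and 0.08 to 0.13 with 1 mouse left out (also added later). Same-numbered replicates of the SCI groups did not deviate together (r from -0.15 to 0.09), so the replicate number is no pairing and its block is only an alternative. Of the alternative fold changes for single members, 31 passed the threshold newly, 18 no longer passed it and 13 changed sign. Another 641 values were unchanged. They include mean TPM of members with 1 mouse left out, which has no threshold or direction. The number of fold changes that kept side and direction is therefore smaller than 641. The 18 came from voom weights and the block. DESeq2 called 5 and 7 members, and the filter on TPM in every group 3 and 4 of 6 tested. The causes were not tested. The 2 controls limit every comparison with them, and 4 members had 0 counts in one of them at a depth inside the range of the SCI mice.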
